A study of Mus musculus with 40 samples.

Results

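The genes Hmgcs1, Mvd, Idi1, Fdps, Sqle, Lss, Cyp51 and Dhcr7 encode enzymes of cholesterol synthesis, and they were taken by symbol from the annotation of the deposited fold change table, 8 of the 29411 gene symbols in it. They had been listed as genes of cholesterol synthesis and uptake, but all 8 are synthesis enzymes and none takes up cholesterol, so they are described here as cholesterol synthesis genes. Cholesterol is built from acetyl-CoA by way of mevalonate, the isoprenoid pyrophosphates and squalene, which is folded into lanosterol and then trimmed to cholesterol. When sterol in the endoplasmic reticulum runs low, the transcription factor SREBP2 is released and raises the transcripts of most of these enzymes together, and ample sterol holds them down. Fat is a major store of free cholesterol, and its macrophages take up and export cholesterol as lipid-filled cells die.

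All animals were C57BL/6J mice that entered the diets after weaning at 3-4 weeks of age, in 5 groups of 30 animals followed for 18 weeks, with 5 animals of each group killed every 3 weeks. The tissue was the stromal vascular cells (SVCs) of subcutaneous fat, that is the cells of fat other than the adipocytes. LFC mice ate a low-fat diet with 10% of calories from fat, and HFC mice a diet rich in fat (60% of calories) and sucrose. HF5, HF20 and HF75 mice ate the HFC diet with 5, 20 or 75 µg of Kal-1, an aqueous ethno-botanical formulation. LFC and HFC each had 11 arrays (days 1, 6, 10 and 14 and weeks 0, 3, 6, 9, 12, 15 and 18), HF5 had 6 arrays (weeks 3 to 18), and HF20 and HF75 had 5 arrays each (weeks 3 to 15). Each diet had 1 array per time label, so arrays were paired by time label and the p-values measure spread between time labels. If weeks count from day 14, day 14 and week 0 are the same time, and they were kept as separate labels here. The design text of the series speaks of 3 biological replicates, which the labels do not show, and the labels do not say how many mice gave the RNA of 1 array.

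A level is the log2 intensity of a probe minus that of the 75th percentile of its array. A gene with several probes was read from the one with the highest mean level. The 75th percentile, the measure of brightness used here, was lowest at 7.82 intensity units, with a median of 788 and a highest value of 2161, over the 11 LFC arrays. It ran from 160 to 1623 (median 778) in HFC, from 456 to 1448 (median 703) in HF5, from 748 to 1793 (median 1126) in HF20 and from 441 to 732.5 (median 521) in HF75. All 8 genes were well above background on 36 of the 38 arrays, as judged by the scanner software. The LFC array of week 3 was dim, with 17.2% of probes and 4 of the 8 genes above background, and its Sqle, Lss, Mvd and Cyp51 were set to the lowest level read as above background there. The LFC array of day 14 had 9104 outlier spots, among them those of Fdps and Cyp51, which therefore have no value on it.

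Macrophages, named in the title of the series, were represented by Emr1, Cd68, Csf1r, Itgam, Lyz2, Cd14 and Mrc1, and all 7 were above background on 8 of 11 LFC, 10 of 11 HFC, 6 of 6 HF5, 5 of 5 HF20 and 5 of 5 HF75 arrays. None of the 7 was above background on the LFC array of week 3, Itgam was not on either array of day 6, Lyz2 was not on the HFC array of day 6, and Lyz2 had no value on the LFC array of day 14. Adipocyte genes were read in the same samples, with all 8 of Adipoq, Lep, Plin1, Plin4, Cidec, Retn, Cfd and Pck1 above background on 11 of 11 HFC arrays and on 6 of 11 LFC arrays (on 3 more, 1 of the 8 had no value). The LFC array of week 18 had only 1 of 5 fibroblast genes (Col1a1) and 3 of 8 adipocyte genes above background, without Adipoq, Lep, Plin1, Cidec and Retn. In RNA of mixed cells, fewer cells of a type and less RNA per cell cannot be told apart.

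The levels of the 8 genes differed widely from array to array. Lss, which closes squalene epoxide into lanosterol, spanned 5.83 log2 units (56.8-fold) over the 36 arrays other than those 2 LFC arrays, and its standard deviation was at the 84.6th percentile of 28302 probes. Fdps spanned 26.6-fold (77.8th percentile), and Idi1 the least of the 8, 8.63-fold (30.9th percentile). LFC of day 6 was among the 5 highest of the 38 arrays for 7 of the 8 genes, LFC of week 12 for 7, LFC of week 9 for 4 and HF20 of week 12 for 3. LFC of week 3 was so for 5, 4 of them only by the set level.

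Over the arrays of each diet, whose time labels differ, LFC had the highest median of the 5 diets for every gene but Hmgcs1. The Fdps medians were 1.67 in LFC, 0.73 in HF20, 0.51 in HFC, 0.02 in HF5 and -0.38 in HF75. The Lss medians had the same order, -1.69, -2.55, -2.93, -3.00 and -3.26, as had those of Mvd (-0.16, -0.99, -1.27, -1.32 and -1.75) and Cyp51 (-1.11, -2.10, -2.45, -2.49 and -3.01). Sqle and Dhcr7 differed from that order only in having HF5 last, with medians of 0.71 and 1.59 in LFC, 0.15 and 0.83 in HF20, -0.04 and 0.60 in HFC, -0.10 and 0.21 in HF75, and -0.32 and 0.16 in HF5. Idi1 ran from LFC (1.66) through HFC (1.40), HF20 (1.33) and HF75 (1.31) to HF5 (0.91), and Hmgcs1 from HF20 (4.57) through HFC (3.74), LFC (3.49) and HF75 (3.28) to HF5 (2.95). For each of the 8 genes, diets next to each other in the order had ranges that overlapped.

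**Figure D1:**
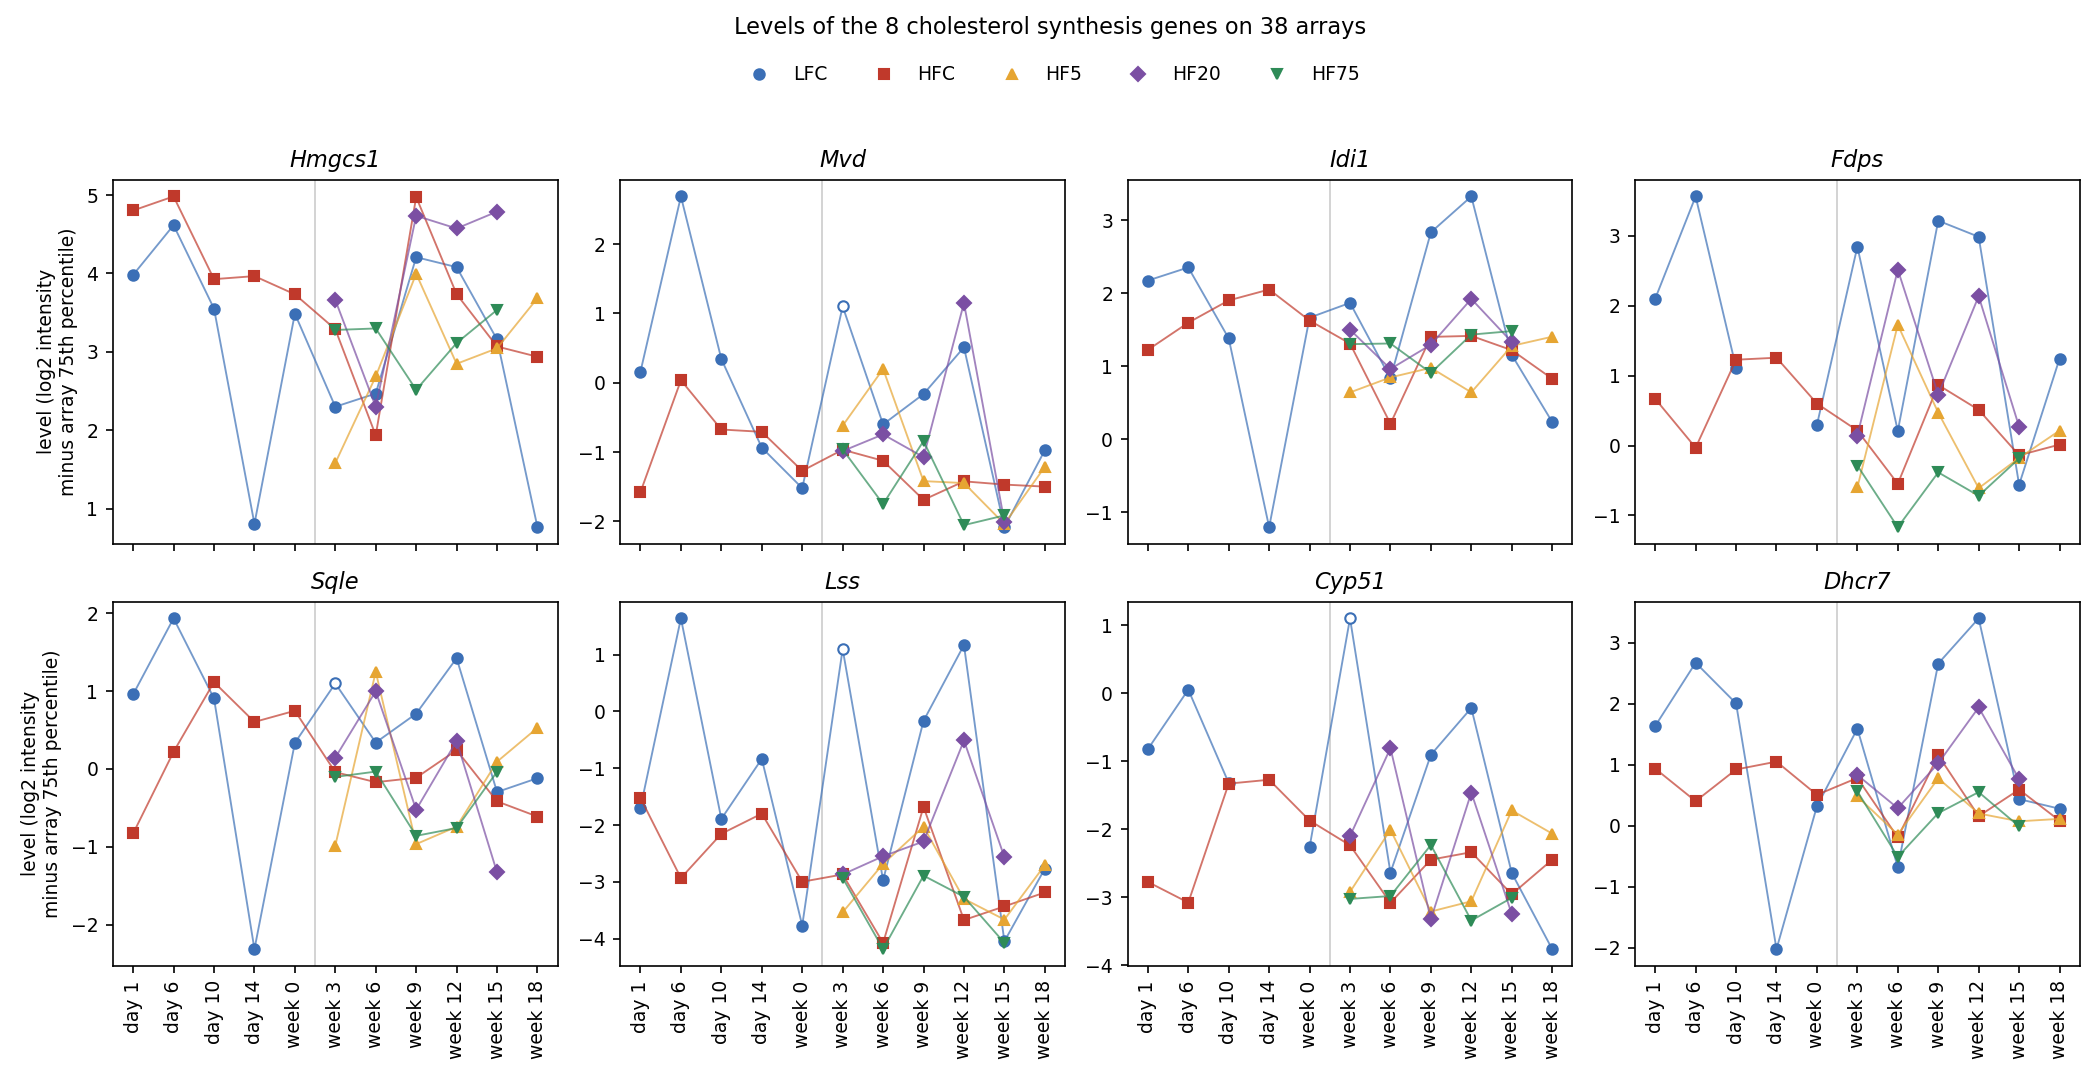
Levels (log2 intensity minus the array's 75th percentile) of the 8 genes on 38 arrays against the time label, 1 point per array, coloured by diet, with open points not above background. LFC arrays of day 6, week 9 and week 12 stand high for most genes, as Lss at 1.64, -0.17 and 1.17, against an HFC range from -4.08 to -1.52.

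The first comparison set HFC against LFC over 11 time labels and asks what the high-fat diet does to these transcripts. Mean levels were lower in HFC for 7 of the 8 genes and higher for Hmgcs1, and the same 7 were lower without the floor on dim values, while 6 were lower under normexp background correction (Idi1 turned) and 5 under quantile normalization (Sqle and Idi1 turned). The median difference was -0.76 log2 over the 8 genes (-0.45 under normexp, -0.44 under quantile normalization) and -0.18 over all probes tested, of which 64.0% were lower. Normexp moved the median of all probes by 0.11 and leaving out the floor by 0.19. No gene passed the test: limma called 0 of the 8 genes and 0 of 29215 probes (0%) at an adjusted p under 0.05, and a t-test paired by time label also called 0. At an unadjusted p under 0.05, limma had 4 of the 8 genes (Fdps, Lss, Mvd and Cyp51, all lower; 2 without day 6 and 2 without week 12) and 719 of all probes (1414 under normexp, 339 without the block), and the t-test 4 and 570. When 1 time label was left out, the count of 719 ran from 428 (day 14) to 1461 (day 1). It was 1779 in one fit over all 38 arrays. The lowest adjusted p of the 8 genes was 0.886 by limma and 0.884 by the t-test, and the lowest over all alternatives tried was 0.655.

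Hmgcs1 makes HMG-CoA, the substrate from which mevalonate is formed. Its LFC level had a lowest value of 0.76, a median of 3.49 and a highest of 4.62, and its HFC level 1.93, 3.74 and 4.98. The lowest LFC values were those of week 18 and day 14, below every HFC array, 3 HFC arrays (day 1, day 6 and week 9) lay above every LFC array, and the ranges overlapped. HFC was higher at 8 of 11 time labels, by 0.72 log2 on average (1.65-fold, SE 0.36, n = 11 pairs, exact sign-flip permutation p = 0.0352 two-sided and unadjusted, limma adjusted p = 0.886). The largest differences were those of day 14 (3.16), week 18 (2.175) and week 3 (0.99), and the median of the 11 was 0.38. The average was 0.48 without day 14 and 0.69 without week 3 (exact sign-flip permutation p = 0.0703), and the mean of both probes gave 0.08. The other Hmgcs1 probe was higher in HFC at 6 of 11 time labels and had a mean of -0.56, which rested on week 3, where it was set to the floor in LFC (a difference of -5.44), and the mean was -0.07 without week 3 and 0.11 without week 3 and day 14.

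Mvd turns mevalonate pyrophosphate into isopentenyl pyrophosphate, the isoprenoid unit. Its lowest, median and highest levels were -2.08, -0.16 and 2.69 in LFC and -1.69, -1.27 and 0.04 in HFC. LFC of day 6 was far above all others, 5 LFC arrays exceeded every HFC array (1 of them the dim array of week 3, at its set level), and the ranges overlapped. HFC was lower at 8 of 11 time labels, by -0.99 log2 on average (SE 0.36, limma adjusted p = 0.886), or -0.88 without week 3 (exact sign-flip permutation p = 0.0352).

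Idi1 interconverts isopentenyl and dimethylallyl pyrophosphate. In LFC it ran from -1.20 (day 14) through a median of 1.66 to 3.32 (week 12), and in HFC from 0.21 through 1.40 to 2.05. LFC values thus enclosed those of HFC on both sides. The difference was -0.17 log2 (SE 0.42, lower at 7 of 11 time labels, exact sign-flip permutation p = 0.71, limma adjusted p = 0.934), and it was 0.10 under both normexp and quantile normalization, 0.01 without week 12 and -0.51 without day 14. The other Idi1 probe gave -0.71, or -0.28 without week 3, where it was set to the floor in LFC.

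Fdps joins these units into farnesyl pyrophosphate, the branch point to sterols and to protein prenylation. Over 10 LFC arrays its level had a lowest value of -0.56 (week 15), a median of 1.67 and a highest of 3.56 (day 6), and over 11 HFC arrays -0.55, 0.51 and 1.26. LFC of days 1 and 6 and weeks 3, 9 and 12 exceeded every HFC array, and the other LFC arrays lay within or just under the HFC range. HFC was lower at 7 of 10 time labels, by -1.36 log2 on average (2.57-fold lower, SE 0.44, exact sign-flip permutation p = 0.0176, limma adjusted p = 0.886), or -1.22 without week 3 (p = 0.0352 by the same exact test, over 9 pairs).

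Sqle puts the epoxide on squalene, a step limited by oxygen and closely controlled. In LFC its lowest, median and highest levels were -2.32, 0.71 and 1.94, and in HFC -0.83, -0.04 and 1.12. The lowest LFC array was day 14 and the 2 LFC arrays above all HFC arrays were day 6 and week 12, while week 3 entered at its set level. The difference was -0.38 log2 (SE 0.41, lower at 8 of 11 time labels, limma adjusted p = 0.886), or -0.31 without week 3 (exact sign-flip permutation p = 0.502). It was 0.14 under quantile normalization, -0.19 under normexp, -0.18 without the floor, -0.24 without day 1, -0.25 without day 6 and -0.72 without day 14.

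Lss had a lowest level of -4.05, a median of -1.69 and a highest of 1.64 in LFC, and -4.08, -2.93 and -1.52 in HFC. LFC values spread over the widest range of the 8 genes, with 5 arrays above every HFC array (week 3 at its set level among them) and 3 others (weeks 0, 6 and 15) at or under the HFC median. The mean difference was -1.46 log2 (SE 0.57, lower at 8 of 11 time labels, limma adjusted p = 0.886), or -1.21 without week 3 (exact sign-flip permutation p = 0.0723) and -0.89 under normexp, and the other Lss probe gave -1.68, or -1.38 without week 3.

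Cyp51 takes the first methyl group off lanosterol. Over 10 LFC arrays its lowest level was -3.76, its median -1.11 and its highest, below the set level of week 3, 0.05 (day 6), and over 11 HFC arrays they were -3.08, -2.45 and -1.27. LFC of day 1, day 6, week 9 and week 12 lay above every HFC array, LFC of week 18 below every one. HFC was lower at 8 of 10 time labels, with week 3 at its set level in LFC, by -1.11 log2 on average (SE 0.47, limma adjusted p = 0.886). Without week 3 it was -0.87 (exact sign-flip permutation p = 0.0898, over 9 pairs), and under normexp -0.56. The other 2 Cyp51 probes gave -1.13 and -0.85, or -0.74 and -0.56 without week 3.

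Dhcr7 makes the last reduction to cholesterol, from 7-dehydrocholesterol. In LFC its level ran from -2.02 through a median of 1.59 to 3.40, and in HFC from -0.19 through 0.60 to 1.16. It had 6 LFC arrays above every HFC array, the most of the 8 genes, yet also 2 (day 14 and week 6) below every one. The difference was -0.54 log2 (1.45-fold lower in HFC, SE 0.47, lower at 7 of 11 time labels, exact sign-flip permutation p = 0.296, limma adjusted p = 0.886). It was -0.11 under quantile normalization, -0.34 under normexp, -0.27 without week 12, -0.36 without day 6 and -0.90 without day 14. The other Dhcr7 probe was not above background on 3 LFC arrays and gave -1.44, or -1.02 without week 3, where it was set to the floor.

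Time label by time label, with 1 array of each diet and no test, the genes differed together at some times and not at others. At day 6, 7 of the 8 genes were lower in HFC with a median of -2.46 log2, Lss at -4.58 and Fdps at -3.59. At week 12 all 8 were lower with a median of -2.03, Lss at -4.85 and Dhcr7 at -3.24. At week 9, 7 were lower with a median of -1.51, and at day 1, 6 were lower with a median of -1.19. These 4 medians stood against medians of all probes of 0.29, 0.03, -0.02 and 0.13. The LFC and HFC arrays of day 1 were scanned on different days, and those of each other time label on the same day. Week 6 was weaker, with 7 lower and a median of -0.53. At day 10 and weeks 0 and 15 the medians lay near 0 (0.05, 0.28 and 0.11), with 4, 1 and 3 of the 8 genes lower, and at week 18 it was -0.31 with 5 lower. The arrays of week 3 and day 14 carry less weight, since all probes shifted by -2.63 at week 3 (the 8 genes by -1.60), and at day 14 only 6 genes had values, 5 of them higher in HFC with a median of 3.00. With day 14 and week 0 taken as 1 time point, 7 of the 8 genes were lower with a median of -0.76 and 0 passed (4 unadjusted, by limma). Without week 3 and day 14, 7 of the 8 genes were again lower, with a median of -0.89 against 0.05 for all probes. Without week 3, day 14 and week 18, chosen after seeing the data, 7 were lower with a median of -1.03 against 0.03. Limma called 0 probes there, with 6 of the 8 genes and 728 of 30346 probes at an unadjusted p under 0.05. At the 4 time labels whose LFC and HFC arrays shared a slide (day 6 and weeks 0, 3 and 9) 7 were lower with a median of -1.30, against -0.63 for all probes there, with the dim array of week 3 among them.

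**Figure D2:**
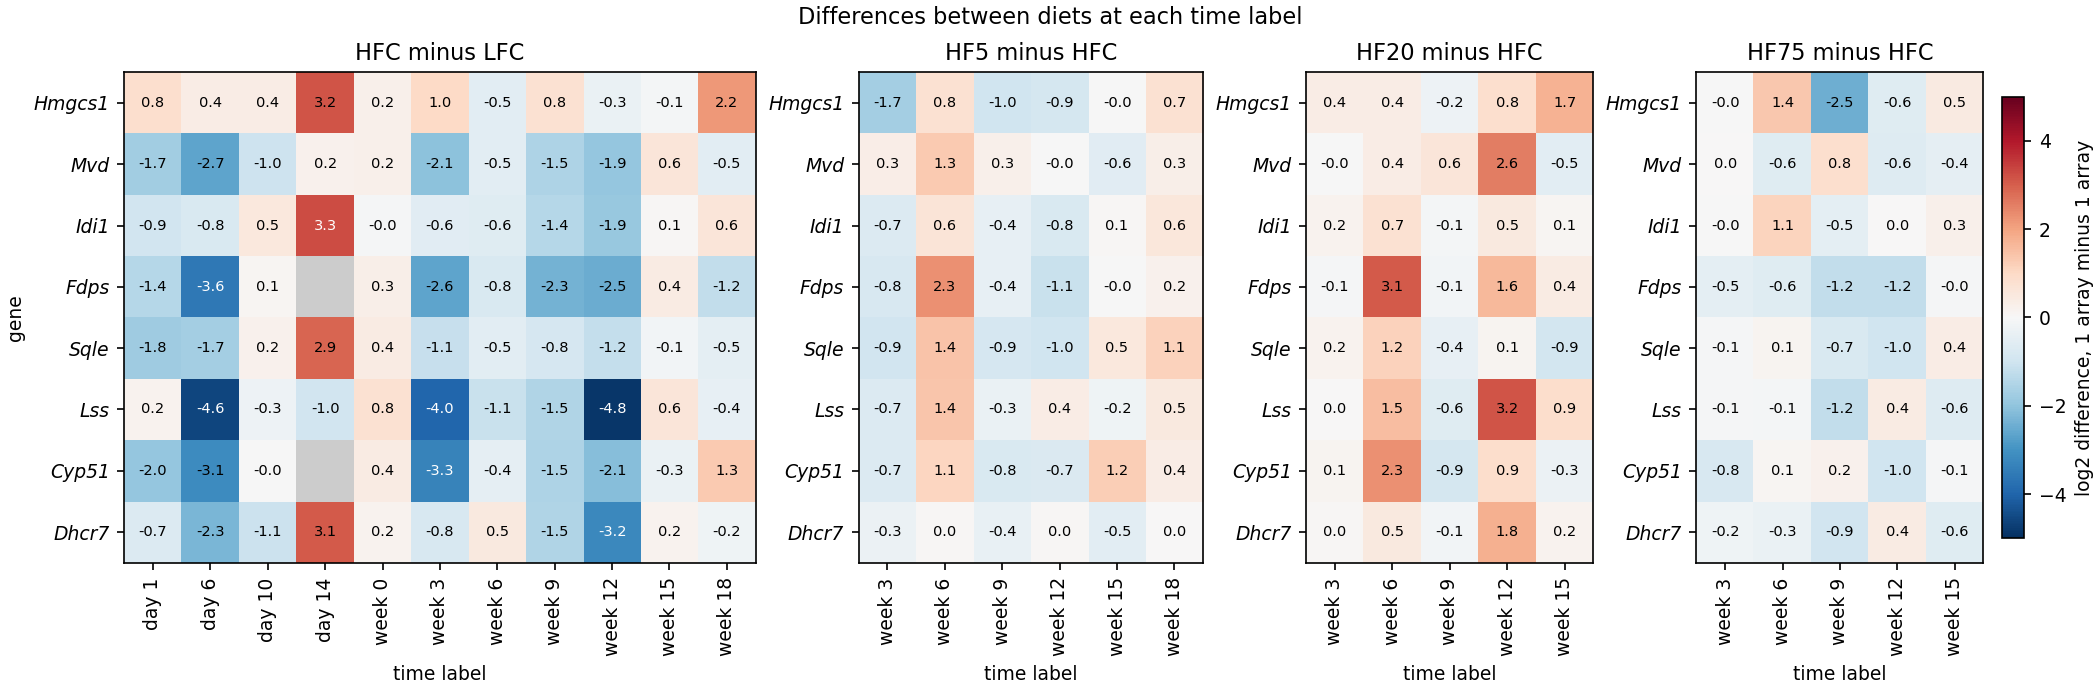
Log2 difference of each gene (vertical axis) at each time label (horizontal axis), 1 array minus 1 array, for HFC minus LFC and for each Kal-1 dose minus HFC, blue for lower and grey for no value. HFC minus LFC is lower for 7 of 8 genes at day 6, for 7 at week 9 and for 8 at week 12, while over all 11 time labels the mean is lower for 7 (6 under normexp, 5 under quantile normalization).

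Other lists of genes were read on the LFC arrays with high cholesterol synthesis genes, and their part in the differences was not tested. The 9 fatty acid synthesis genes were all above background on LFC of day 6, week 9 and week 12, with summed levels (the sum over genes of intensity relative to the array's 75th percentile) of 676, 254 and 276, against a lowest, median and highest of 15.7, 92.5 and 676 in LFC and 29.7, 47.5 and 423 in HFC. Fasn was the brightest of them on the first array, Me1 on the second and Scd1 on the third. The 8 adipocyte genes, all above background on these arrays, summed to 1074 (brightest Cfd), 374 and 346 (brightest Plin4), with an LFC median of 87.7 and an HFC median of 130. The adipocyte sum of the HFC array of day 6 read 1425. Spots were saturated for 2, 4 and 5 of the 9 fatty acid synthesis genes and for 4, 7 and 7 of the 8 adipocyte genes on the 3 LFC arrays, and for 2 adipocyte genes on HFC of day 6, so that these sums are lower bounds and the brightest gene is the brightest as read. Fos, Jun, Egr1 and Atf3, known to respond to tissue digestion, were all above background on the 3 arrays but summed to only 5.28, 3.77 and 2.78 there (brightest Atf3 on day 6, Jun on weeks 9 and 12), against medians of 37.8 in LFC and 122 in HFC. Macrophage sums on these arrays were 16.7, 14.1 and 11.4, near the LFC median of 16.7.

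Other enzymes of cholesterol synthesis had values on the same side as the 8 genes. Of 10 (Acat2, Mvk, Pmvk, Fdft1, Sc4mol, Nsdhl, Hsd17b7, Ebp, Sc5d and Tm7sf2), 9 were lower in HFC than in LFC with a median of -0.59 log2, the furthest being Nsdhl at -1.05 and Tm7sf2 at -0.83, and 0 passed limma's test (1 at an unadjusted p under 0.05). Of 7 genes of sterol sensing, 3 were lower with a median of 0.04, and 0 passed; Insig1, which holds SREBP in the endoplasmic reticulum, was at -0.99 and Mylip, a ligase that degrades lipoprotein receptors, at 0.65. Of 11 genes of cholesterol uptake, storage and efflux, 8 were higher with a median of 0.28, and 0 passed (1 unadjusted). Among the 8 were the lipoprotein receptor Vldlr at 0.76 (0.28 without week 18) and the lysosomal esterase Lipa at 0.65. Of 9 fatty acid synthesis genes, 7 were lower with a median of -0.61, Acly at -1.45 and Acaca at -1.39, and 0 passed (2 unadjusted). All 10 of the other enzymes were above background on 7 of 11 LFC arrays, so set levels enter their means. Without the dim week 3, 8 of the 10 were lower (-0.45; Nsdhl -0.85, Tm7sf2 -0.73), 2 of 7 sterol sensing genes were lower (0.14), 9 of 11 uptake, storage and efflux genes higher (0.27) and 8 of 9 fatty acid synthesis genes lower (-0.65). Without week 18, 4 of 7 sterol sensing genes (-0.02) and 8 of 9 fatty acid synthesis genes (-0.96) were lower. Without week 3, day 14 and week 18, 5 of 7 (-0.12) and 9 of 9 (-1.19) were lower. In that last setting 7 of 11 uptake, storage and efflux genes were higher (0.15). The scaling alternatives were not run for these lists.

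The diet difference itself was then compared between weeks 3 to 18 (6 time labels) and day 1 to week 0 (5 time labels). It was lower in the later period for 7 of the 8 genes, with a median of -0.60 log2 that equalled the median of all probes, -0.60 (77.2% lower), and the count was 5 under normexp (all probes shifted by 1.32), 6 under quantile normalization (0.20) and 6 without the floor (0.19). Without day 14 alone 3 were lower, and without week 3 and day 14 the split was 4 to 4 with a median of 0.02. Limma called 0 of the 8 genes and 0 of 29215 probes (0%), with 0 of the 8 and 944 of all at an unadjusted p under 0.05, but under normexp it called 5978 probes (5840 higher, 138 lower, 12033 unadjusted), none of the 8 genes, and the median of all probes was 0.72. When 1 time label was left out, the count of 944 ran from 307 (day 1) to 1519 (week 3). The t-test was not run for comparisons of periods. The lowest adjusted p of the 8 genes was 0.846. The diet difference (HFC minus LFC) of T cell genes was higher in the later period (4 of 4, median 3.88 log2, 3 at an unadjusted p under 0.05). So was that of B cell (3 of 3, 3.48, 1), fibroblast (5 of 5, 2.11, 0) and digestion response genes (4 of 4, 2.06, 0). Within LFC the levels of these lists were mostly lower later, with medians of -2.13, -1.92, -1.81 and -1.19 in that order. Within HFC the medians were 1.75, 1.496, 0.30 and 0.87. The later LFC arrays include week 18, where few fibroblast genes were above background. Mostly lower was the diet difference of the 10 other cholesterol synthesis enzymes (9 of 10, -0.78, 0) and of adipocyte genes (5 of 8, -0.08, 0). No gene of these lists passed limma's test, and their part was not tested.

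Within the LFC diet, means in weeks 3 to 18 were higher for 4 and lower for 4, with a median of -0.04 log2 against 0.36 for all probes (27.5% lower), and 5 were lower under normexp (all probes shifted by -0.89), 4 under quantile normalization (0.11) and 6 without the floor (-0.21). Limma called 0 of the 8 genes and 0 of 29383 probes (0%), with 0 of the 8 and 560 of all (6526 under normexp) at an unadjusted p under 0.05. When 1 time label was left out, the count of 560 ran from 246 (day 10) to 1395 (week 3). Without day 6 alone 2 of the 8 were lower, and without day 14 or week 12 alone 7 were. Without both week 3 and day 14 all 8 were lower, with a median of -0.53 against -0.11 for all probes. Without the dim array of week 3, limma called 1 probe in all and none of the 8 genes.

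Within the HFC diet, all 8 genes had lower means in weeks 3 to 18 than in day 1 to week 0, and all 8 also under normexp, under quantile normalization and without the floor. The median was -0.57 log2 (-0.33 under normexp, where Lss was at -0.12, Mvd at -0.09 and Cyp51 at -0.07) against -0.24 for all probes (67.5% lower), and normexp moved the median of all probes by 0.51 and quantile normalization by 0.26. For Hmgcs1 the 5 early HFC arrays read 4.80, 4.98, 3.93, 3.97 and 3.73, and the 6 later ones had a lowest value of 1.93, a median of 3.18 and a highest of 4.97. All but 2 of the later Hmgcs1 values (weeks 9 and 12) lay under the whole early range, and the mean difference was -0.96 (1.94-fold lower, SE 0.48, limma adjusted p = 0.652). For Idi1 the early arrays read 1.22, 1.60, 1.90, 2.05 and 1.62, and the later ones had a lowest value of 0.21, a median of 1.27 and a highest of 1.41. These Idi1 ranges overlapped, and the mean difference was -0.61 (SE 0.30, limma adjusted p = 0.652). The other 6 genes lay between -0.87 (Lss) and -0.33 (Dhcr7). The other Dhcr7 probe gave -0.99 and the other 2 Cyp51 probes -0.95 and -0.71, each at an unadjusted limma p under 0.05. Their limma adjusted p were 0.652, 0.646 and 0.652. Limma called 0 of the 8 genes and 0 of 32453 probes (0%), and 2 probes in all when week 0 was left out. At an unadjusted p under 0.05 it had 0 of the 8 genes and 2444 of all probes. The count of 2444 was 1214 under normexp, 4658 without the floor, 5015 without week 0 and 1475 without week 15. Other lists of genes in the same comparison lay mostly to 1 side: adipocyte genes (8 of 8 lower, median -1.80, 3 at an unadjusted p under 0.05), fatty acid synthesis genes (8 of 9 lower, -0.98, 2), endothelial genes (4 of 4 lower, -0.72, 2), skeletal muscle genes (4 of 4 lower, -0.89, 0), skin epithelium genes (3 of 3 lower, -1.09, 0), erythroid genes (3 of 3 lower, -0.72, 0), macrophage genes (7 of 7 higher, 1.13, 2) and digestion response genes (4 of 4 higher, 0.87, 0). In these lists 0 genes passed limma's test, and their part in the result was not tested. Time on the diet, age and scan day cannot be told apart in comparisons of periods.

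The Kal-1 comparisons set each dose against the HFC arrays of the same time labels, so all 3 share HFC arrays and are not independent of each other or of the comparison with LFC. At 5 µg the 8 genes showed no common direction. Mean levels were higher in HF5 for 5 genes and lower for 3, with 5 lower under normexp (all probes shifted by -0.31), 3 under quantile normalization and 3 without the floor. The median was 0.03 log2 (0.01 over all probes, of which 48.1% were lower), and differences ran from -0.35 for Hmgcs1 (SE 0.35; -0.08 without week 3, -0.11 under normexp) to 0.27 for Mvd (SE 0.25; 0.06 without week 6, -0.03 under normexp). Limma called 0 of the 8 genes and 0 of 29200 probes (0%), with 0 of the 8 and 1360 of all at an unadjusted p under 0.05, and the t-test called 0, with 1318 of all unadjusted. The count of 1360 was 8239 under normexp and 298 without the block. The lowest adjusted p of the 8 genes was 0.975. Of the 10 other cholesterol synthesis enzymes, 9 were higher in HF5 with a median of 0.16 log2, and 0 passed limma's test (1 unadjusted).

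Single time labels of HF5 went both ways. At week 6 all 8 genes were higher than in HFC, with a median of 1.20 log2 and Fdps at 2.27, and at week 18 all 8 were higher with a median of 0.43. At weeks 3, 9 and 12, 7, 7 and 6 of the 8 were lower, with medians of -0.68, -0.41 and -0.75, and week 15 lay at -0.03. In place of 3, the number of the 8 genes with lower means in HF5 was 7 without week 6, 5 without week 15 and 5 without week 18.

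At 20 µg all 8 genes had higher mean levels than in HFC, as they did under quantile normalization and without the floor, while 7 did under normexp (Cyp51 turned; all probes shifted by -0.47). The median was 0.54 log2 (0.27 without week 12, 0.33 under normexp), against 0.08 over all probes (44% lower). Without week 3, 7 of the 8 genes were higher, and without week 6, 6. Limma called 0 of the 8 genes and 0 of 30831 probes (0%), with 0 of the 8 and 3400 of all at an unadjusted p under 0.05, and the t-test called 0, with 2122 of all unadjusted. The count of 3400 was 9715 under normexp, 1930 without the block and 461 in one fit over all 38 arrays. When 1 week was left out it ran from 873 (week 15) to 5190 (week 3). The lowest adjusted p of the 8 genes was 0.432.

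Fdps in HF20 read 0.14, 2.52, 0.73, 2.14 and 0.27 at weeks 3, 6, 9, 12 and 15, against 0.21, -0.55, 0.87, 0.51 and -0.14 in HFC. Only weeks 6 and 12 of HF20 lay above the HFC range. The Fdps difference was 0.98 log2 (1.97-fold, SE 0.51, higher at 3 of 5 time labels, limma adjusted p = 0.433). Lss in HF20 read -2.87, -2.55, -2.29, -0.51 and -2.56, against -2.87, -4.08, -1.68, -3.67 and -3.43 in HFC. The Lss value of week 12 stood alone at the top, and the other 4 lay inside the HFC range. The Lss difference was 0.99 (1.99-fold, SE 0.54, higher at 4 of 5 time labels, limma adjusted p = 0.442). Hmgcs1 in HF20 read 3.66, 2.30, 4.74, 4.57 and 4.79, against 3.29, 1.93, 4.97, 3.74 and 3.07 in HFC, and every HF20 value lay inside the HFC range. Its difference was 0.61 (SE 0.32, higher at 4 of 5 time labels, limma adjusted p = 0.432). The other 5 genes lay between 0.03 (Sqle) and 0.60 (Mvd). Leaving out 1 week took Fdps to 0.46 (week 6), Lss to 0.45 and Mvd to 0.11 (week 12 for both) and Hmgcs1 to 0.33 (week 15), and normexp took Lss to 0.18 and Mvd to 0.27.

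By time label, the medians of HF20 were highest at weeks 6 and 12. At week 6 all 8 genes were higher than in HFC with a median of 0.96 log2, Fdps at 3.06 and Cyp51 at 2.27, and at week 12 all 8 were higher with a median of 1.25, Lss at 3.16 and Mvd at 2.57. Week 9 had 7 lower with a median of -0.19, and weeks 3 and 15 medians of 0.09 and 0.14, though Hmgcs1 differed most at week 15, by 1.72. HF20 of week 12 also had the highest summed levels of the group for fatty acid synthesis genes (239, with 9 of 9 above background and Me1 brightest) and for adipocyte genes (474, 8 of 8, Plin4 brightest), and the lowest for the digestion response genes (2.23, 4 of 4, Jun brightest), but HF20 of week 6 had the lowest adipocyte sum, 26.4 (8 of 8, Plin4 brightest). Spots of 7 adipocyte and 3 fatty acid synthesis genes were saturated on HF20 of week 12, so its sums are lower bounds. Over all 5 time labels, adipocyte genes (8 of 8, median 1.69, 4 at an unadjusted p under 0.05) and fatty acid synthesis genes (9 of 9, 1.25, 5) were higher in HF20 than in HFC and digestion response genes lower (4 of 4, -2.93, 3), with 0 passing limma's test. Also lower were macrophage genes (7 of 7, -0.53, 3), fibroblast genes (5 of 5, -0.46, 2) and T cell genes (3 of 4, -1.81, 3), with 0 passing. The part of these lists in the HF20 values was not tested. Of the 10 other cholesterol synthesis enzymes, 10 were higher in HF20 than in HFC with a median of 0.93 log2, and 0 passed limma's test (3 unadjusted).

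At 75 µg, 7 of the 8 genes had lower mean levels than in HFC and Idi1 a higher one, with the same counts under normexp (all probes shifted by -0.26), quantile normalization and without the floor. The median was -0.28 log2 (-0.16 without week 9, -0.15 without week 12), against 0.03 over all probes (47.9% lower). Without week 6 all 8 genes were lower, and without week 9, 6. Of the 10 other cholesterol synthesis enzymes, 8 were lower in HF75 with a median of -0.19 log2, and 0 passed limma's test (2 unadjusted). Limma called 0 of the 8 genes while it called 270 of 28910 probes (0.934%), 210 higher and 60 lower, with 1 of the 8 genes (Fdps, lower; 0 without week 3, 9 or 12, under normexp or in one fit over all 38 arrays) and 4406 of all (2214 under normexp) at an unadjusted p under 0.05. Calls were 238 higher and 10 lower under normexp, 270 and 76 under quantile normalization, 234 and 55 without the floor, 9487 and 1070 without the filter and 0 and 2 without the block. The count of 270 was 0 without week 3, 13 without week 6, 241 without week 9, 97 without week 12 and 20 without week 15, and the t-test called 1 probe (4116 unadjusted), which was not one of the 8 genes. HF75 arrays of weeks 3, 6 and 9 were scanned on other days than the HFC arrays of those weeks. The count was 0 with only the pairs scanned on 1 day and 0 in one fit over all 38 arrays.

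Fdps in HF75 read -0.29, -1.17, -0.38, -0.72 and -0.19 at weeks 3, 6, 9, 12 and 15, against 0.21, -0.55, 0.87, 0.51 and -0.14 in HFC. Each HF75 value lay under the HFC value of its week, and 4 of 5 HFC arrays lay above every HF75 array, the exception being week 6. The Fdps difference was -0.73 log2 (1.66-fold lower, SE 0.27, limma adjusted p = 0.255). An exact sign-flip permutation test gave p = 0.0625, the smallest that 5 pairs allow. Lss in HF75 read -2.93, -4.19, -2.89, -3.26 and -4.08, and Dhcr7 read 0.57, -0.51, 0.21, 0.55 and -0.01. Both lay mostly inside their HFC ranges, with 1 HF75 array of each below it, and their differences were -0.32 (-0.10 without week 9, -0.51 without week 12) and -0.34 (-0.19 and -0.52). The other 5 genes lay between -0.31 (Cyp51) and 0.18 (Idi1, whose other probe gave -0.05), and the other Lss probe gave -0.80 (limma adjusted p = 0.249).

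The 8 genes varied together across arrays, in a description over 36 arrays (without LFC of week 3 and day 14) that share diets, slides and the scaling of each array. All 28 pairs of genes had a positive Pearson r of levels, from 0.15 (Hmgcs1 and Sqle) to 0.89 (Lss and Dhcr7), with a median of 0.67. Fdps and Lss were at 0.86 and Sqle and Cyp51 at 0.82. Hmgcs1 followed the others least, with a median r of 0.31. The median r of the 8 genes with 28294 other probes was 0.0043, and over all 38 arrays the medians were 0.66 and 0.13.

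**Figure D3:**
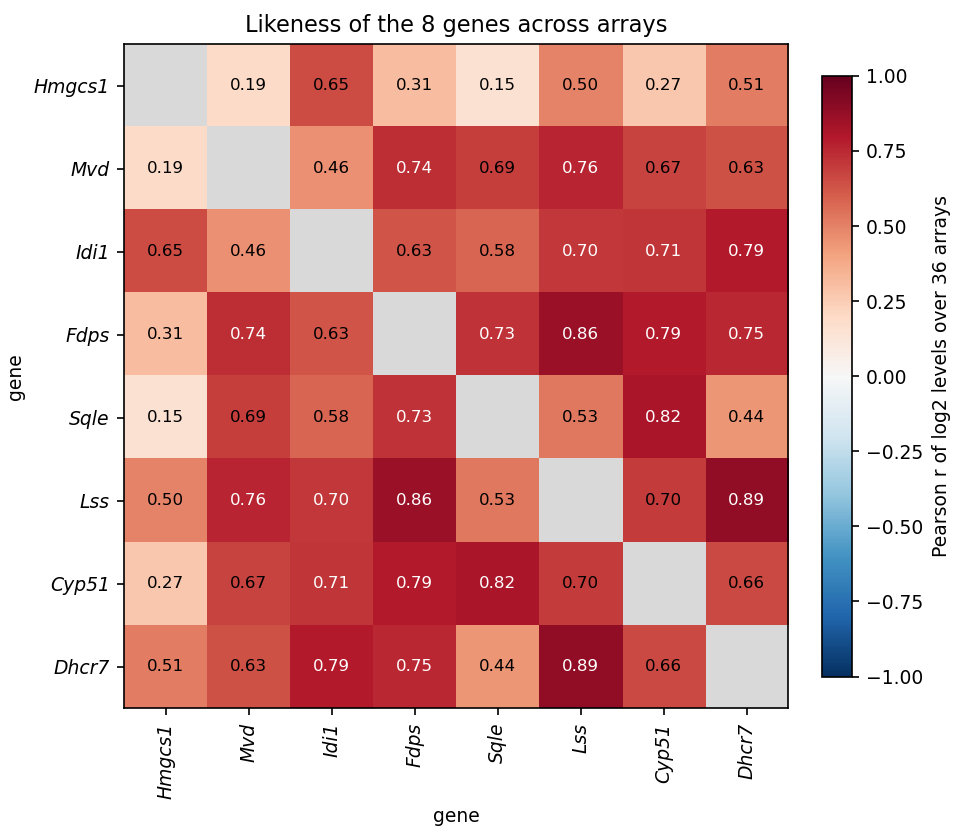
Pearson r of log2 levels over 36 arrays for each pair of the 8 genes, which stand on both axes in pathway order. All 28 values are positive, between 0.15 and 0.89, and the row of Hmgcs1 is the palest.

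Most like the mean of the 8 genes were 6 entries, among 12147 genes outside the lists that were above background on all 36 arrays. They were Gm8163 (r = 0.91), LOC676827 (0.90), LOC634846 (0.89), Gm7979 (0.89), LOC674674 (0.87) and Gm3571 (0.86). The deposited table describes them as similar to farnesyl pyrophosphate synthase or, for LOC634846, to farnesyl diphosphate synthetase. Their r with Fdps was between 0.92 and 0.97, and whether they read Fdps RNA was not tested. RefSeq lists Gm8163, Gm3571 and Gm7979 as pseudogenes. Another entry described as similar to farnesyl pyrophosphate synthase, Gm5873, was above background on only 10 of the 36 arrays and had an r of 0.32 with Fdps. Gm7979 and LOC674674 have the same probe sequence and are 1 measurement in effect. In HFC against LFC all 6 were lower, between -0.78 and -0.37 log2, as Fdps was, and 0 passed the test. The next were Tlcd2 (0.84), Slc25a1 (0.83), the carrier that brings citrate out of mitochondria, Mlf2 (0.82) and Acss2 (0.81), which makes acetyl-CoA from acetate.

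Among the lists, the 10 other cholesterol synthesis enzymes had a median r of 0.67 with the mean of the 8 genes, highest for Fdft1 (0.84), and the 9 fatty acid synthesis genes 0.65, with Elovl6 and Acly both at 0.83. Sterol sensing genes had a median of 0.08, yet Insig1 was at 0.82 and Mylip at -0.32. Uptake, storage and efflux genes had a median of 0.20, from -0.44 for Soat1, which esterifies cholesterol, to 0.59 for Npc2, which moves it out of lysosomes. Adipocyte genes had a median of 0.52 (Plin1 0.66), digestion response genes -0.50 and macrophage genes -0.01.

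Since the 8 genes varied together, their promoters were searched for 3 motifs of sterol-controlled genes on both strands of the 250 bases before the start of transcription, with RefSeq sequences of build GRCm38 (GRCm38.p6). The set of promoters at hand held entries for 6 of the 8 genes, and Sqle and Fdps were not searched. TCACNCCAC, a core of the sterol regulatory element, was found in Hmgcs1 only (1 of 6 genes) and in 1.05% of 32851 promoters. Other forms of the element, and sequence outside these 250 bases, were not searched, so its absence elsewhere was not shown. CCAAT, the NF-Y box, and GGGCGG, the Sp1 box, were each found in at least 1 entry of all 6 genes, and in 33.8% and 32.7% of all promoters. The units differ, since the 6 genes were counted by gene over 8 entries, and the shares by entry (32851 entries of 27025 genes). Dhcr7 has 3 starts, with 0, 0 and 2 CCAAT and 1, 0 and 3 GGGCGG. The 5 genes with 1 entry are printed to show where these letters lie. Capitals mark a motif or its reverse complement (ATTGG for CCAAT and CCGCCC for GGGCGG), and each sequence reads 5′ to 3′ toward the gene: Hmgcs1 chr13:119690101-119690350 (plus strand), Mvd chr8:122443423-122443672 (minus), Idi1 chr13:8885356-8885605 (plus), Lss chr10:76531355-76531604 (plus) and Cyp51 chr5:4104698-4104947 (minus).
Hmgcs1: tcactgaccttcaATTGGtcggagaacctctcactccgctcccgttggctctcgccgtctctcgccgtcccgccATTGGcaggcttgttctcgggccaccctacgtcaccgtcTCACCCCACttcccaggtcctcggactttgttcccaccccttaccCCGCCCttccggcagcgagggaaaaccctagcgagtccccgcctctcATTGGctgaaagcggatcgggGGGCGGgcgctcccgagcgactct
Mvd: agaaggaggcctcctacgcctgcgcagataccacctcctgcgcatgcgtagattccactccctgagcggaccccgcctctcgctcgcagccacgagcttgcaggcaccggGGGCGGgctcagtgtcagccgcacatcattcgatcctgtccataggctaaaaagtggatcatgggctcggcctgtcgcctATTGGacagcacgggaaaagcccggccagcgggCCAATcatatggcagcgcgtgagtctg
Idi1: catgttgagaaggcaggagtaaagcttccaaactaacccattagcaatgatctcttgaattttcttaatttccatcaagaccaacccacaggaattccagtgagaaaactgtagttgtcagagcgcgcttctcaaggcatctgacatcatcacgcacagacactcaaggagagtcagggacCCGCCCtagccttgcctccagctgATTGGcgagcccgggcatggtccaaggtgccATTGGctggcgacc
Lss: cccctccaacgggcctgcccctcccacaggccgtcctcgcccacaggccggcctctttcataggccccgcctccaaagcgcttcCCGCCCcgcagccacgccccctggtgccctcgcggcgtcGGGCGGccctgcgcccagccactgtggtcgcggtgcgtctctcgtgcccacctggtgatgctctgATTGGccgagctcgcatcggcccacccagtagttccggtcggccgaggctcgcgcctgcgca
Cyp51: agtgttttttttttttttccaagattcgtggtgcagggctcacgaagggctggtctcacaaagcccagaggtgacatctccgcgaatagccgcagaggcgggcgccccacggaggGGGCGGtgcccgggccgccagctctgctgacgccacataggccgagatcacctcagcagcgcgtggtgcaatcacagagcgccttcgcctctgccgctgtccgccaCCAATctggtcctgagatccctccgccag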

How the data were processed

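Per the file headers, each array gave a background-corrected intensity (gProcessedSignal) per spot from Agilent Feature Extraction, 10.5.1.1 in the headers and 9.1 in the labels. The deposited log2 fold change values of the authors were not used, only the gene symbols beside them. Outlier spots were dropped, spots of a probe averaged, and values not well above background raised to the array's lowest value that was. Levels are log2 minus the array's 75th percentile. Each comparison kept probes above background on 50% of the arrays of either group and used limma 3.58.1 (R 4.3.3, data.table version 1.17.8) with Benjamini-Hochberg adjustment over all probes tested. The time label was a block where diets were compared, and comparisons of periods had no block. Sequences and figures used Python 3.11.15. The fits were tested on simulated data, with an outcome that is not reported here. Named by rule were all 8 genes, the 2 genes of each list furthest from 0 in HFC against LFC, and the 10 genes most like the 8. Further genes were named where a list was spelled out, for brightness or saturation, for their r with the 8 genes, or as exceptions (Dcn and Gm5873). Members and lists were chosen with earlier results of these data known. Alternatives were normexp (offset 50), quantile normalization, no filter, no floor, no block, a t-test paired by time label (in place of the study's t-test of 3 against 3 values at 1 time point, which 1 array per diet does not allow), one fit over all 38 arrays, day 14 and week 0 as 1 time point, pairs on 1 slide, and leaving out time labels. Of 40 arrays, 2 of week 18 with conflicting labels were left out. Of 2 lists, 1 gene each is not reported here. The number of arrays limits the precision.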

Additional observations from a re-analysis of the deposited data

Results flagged for a closer look

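The Lss level of HF20 at week 12, -0.51, stood further above the other 4 HF20 values (-2.87, -2.55, -2.29 and -2.56) than Dixon's test allows at 95%. It was 1 of 24 groups of gene and diet tested, and chance sets about 1 in 20 such groups apart.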

How the results depend on the processing

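None of the 8 genes passed limma's test under any alternative. With alternatives that are the same fit counted once, 84 of 944 values of a gene under an alternative changed sign and 0 were called, with 0.0626 as the lowest adjusted p (Fdps, HF75 against HFC without the filter). Sign changes numbered 4 of 184 in HFC against LFC, 20 of 120 for HF5, 5 of 104 for HF20, 3 of 112 for HF75, 25 of 144 for the diet difference between periods, 27 of 144 within LFC and 0 of 136 within HFC.

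The number of all probes called, 270 for HF75 against HFC, was 10557 without the filter, 2 without the replicate block, 1 by the t-test, 0 in one fit over all 38 arrays and 0 with only the pairs scanned on 1 day, which was chosen after seeing the data. Leaving out 1 time label in turn gave 0 to 241 for HF75, 0 to 1 within LFC, 0 to 2 within HFC and 0 to 0 in the other comparisons. The diet difference between periods went from 0 to 5978 under normexp. Within LFC the count went from 0 to 1 without week 3, to 1 without week 3 and day 14, and to 22 without week 3, day 14 and week 18, the last chosen after seeing the data. Within HFC it was 2 without week 0. The cause of these changes was not tested. Scan day as a random block, planned only for the periods within 1 diet, was not run, since no scan day held more than 1 array of that diet. Signal over background limits Sqle, Lss, Mvd and Cyp51 on the dim LFC array of week 3. Leaving out week 3, and week 3 with day 14, for the other probes of the 8 genes, the exact test without week 3, and the lists of genes without week 3 or week 18, were also chosen after seeing the data.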

Other observations

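Marker genes of cells and states had values in HFC against LFC on both sides of 0, and 0 of them passed limma's test. Lower in HFC were cell cycle genes (4 of 4, median -0.67 log2, Ccnb1 at -0.73 and Mki67 at -0.70), B cell genes (2 of 3, the third at 0, median -0.55, Cd79a at -0.92 and Cd79b at -0.55) and skin epithelium genes (3 of 3, -1.89, Krt5 at -2.21 and Krt10 at -1.89). Higher in HFC were fibroblast genes (5 of 5, 1.27, Col1a1 at 1.38 and Lum at 1.34), endothelial genes (4 of 4, 1.02, Cdh5 at 1.18 and Tek at 1.12), adipocyte genes (7 of 8, 1.03, Cidec at 1.34 and Cfd at 1.11), erythroid genes (3 of 3, 0.82, Hbb-b1 and Hba-a1 both at 0.82), digestion response genes (4 of 4, 1.75, Fos at 1.92 and Egr1 at 1.80) and macrophage genes (5 of 7, 0.12, Lyz2 at -0.67 and Mrc1 at 0.56). T cell genes (1 of 4 higher, -0.09, Lck at 0.44 and Cd3e at -0.36) and skeletal muscle genes (1 of 4 higher, -0.15, Acta1 at 0.81 and Ckm at -0.70) lay near 0 over all time labels. Without week 18 the T cell median was -0.28 and the skeletal muscle median -0.76 (each 3 of 4 lower, Acta1 at 0.02). Without week 3, day 14 and week 18 they were -0.50 (3 of 4 lower) and -1.05 (4 of 4 lower). Spots of the fibroblast genes Dcn and Col3a1 were saturated on 25 and 21 of 36 arrays. Those of Hbb-b1 were so on 22, Cfd on 16, Hba-a1 on 12, Egr1 on 10 and Col1a1 and Cidec on 9 each. The differences of these genes are therefore approximate. Krt10 was above background on 19 of 36 arrays, and all 3 skin epithelium genes on 4 of 11 LFC arrays, so that set levels enter their differences (-1.37 without week 3). Set levels of LFC of week 18, where few fibroblast and adipocyte genes were above background, also enter. Without week 18 the medians were 0.41 for fibroblast genes (5 of 5 higher), 0.41 for endothelial genes (4 of 4), 0.14 for adipocyte genes (5 of 8) and -0.24 for cell cycle genes (4 of 4 lower), and without week 3, day 14 and week 18 they were 0.07 (3 of 5 higher), 0.30 (4 of 4), -0.27 (1 of 8) and -0.17 (3 of 4 lower). The erythroid median was 0.44 without week 3. None of these genes passed limma's test in either case.

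In HF75 against HFC, 9 of 11 genes of cholesterol uptake, storage and efflux were lower with a median of -0.44 log2 (3 at an unadjusted p under 0.05, lowest adjusted p 0.0550), and 6 of 7 macrophage genes were lower with a median of -0.97 (4 unadjusted, 0 passing limma's test), where 4406 of all 28910 probes had an unadjusted p under 0.05. Fibroblast genes (4 of 5, -0.83, 3 unadjusted, while Dcn was higher by 0.85, also at an unadjusted p under 0.05) and erythroid genes (3 of 3, -1.45, 0 unadjusted) were also lower in HF75, and macrophage genes were lower in HF20 (7 of 7, -0.53, 3 unadjusted) and HF5 (5 of 7, -0.44, 3 unadjusted) as well, with 0 passing. The 3 doses share HFC arrays.

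The 2 arrays of week 18 with conflicting labels belong to no group. The first gave levels of -0.18 for Hmgcs1, -2.67 for Sqle, -1.76 for Idi1, -2.91 for Dhcr7 and -3.60 for Cyp51, with no value for Fdps, Lss and Mvd, whose spots were outliers. The second gave 3.03 for Hmgcs1, -0.43 for Sqle, 0.08 for Fdps, 0.40 for Idi1, -3.24 for Lss, -1.56 for Mvd, -0.40 for Dhcr7 and -2.30 for Cyp51.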
